A study of Mus musculus with 6 samples.

Results

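p53, encoded by Trp53 in the mouse, and 9 of its best known direct target genes were followed in mouse small-intestinal organoids in which an active form of YAP was switched on with doxycycline. The 10 genes are Trp53, Mdm2, Ccng1, Cdkn1a, Bbc3, Bax, Trp53inp1, Phlda3, Zmat3 and Sesn1. They were chosen by name as the transcription factor and core members of its target programme, with earlier results of these data known. Each was found by its Entrez ID among the 24594 IDs of the count table. All 10 passed the filter on low counts and stood among the 12909 genes tested.

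p53 is a transcription factor that is held at a low level in unstressed cells, mainly because the ubiquitin ligase Mdm2 marks the protein for degradation. When DNA damage, nucleolar stress or oncogene activity stabilises it, p53 binds response elements near its targets, which arrest the cell cycle, promote apoptosis, adjust metabolism and, through Mdm2, switch p53 off again. In the intestinal epithelium p53 is best known for the response of crypt cells to irradiation, in which Cdkn1a mediates arrest and Bbc3 mediates crypt cell death. Because p53 is controlled largely at the protein level, the abundance of its mRNA and the output of its targets are separate measurements, and only mRNA was measured here.

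The doxycycline group had 3 RNA-seq libraries from proximal small-intestinal epithelial organoids of the TetON-hYAP/H2B-mCherry mouse strain, given doxycycline at 1 µg/ml for 48 h from passaging. The control group had 3 libraries from organoids of the same strain without doxycycline. Doxycycline drives human YAP, described by the submitters as constitutively active, together with a red fluorescent histone. Both groups carried the transgene, and no library paired doxycycline with organoids lacking it, so effects of the drug and of the transgene cannot be told apart. The sources used here do not say whether the 3 libraries of a group came from separate animals or cultures, so p-values measure the spread between these libraries, which may be technical.

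Libraries held between 11258768 and 16803062 counts with doxycycline and between 8533452 and 14643817 in the control group. Control replicate 3 stood apart. The SD over genes of the log2 difference was 0.971 between it and control replicate 1 and 0.957 between it and control replicate 2, against 0.315 between control replicates 1 and 2. Its deviation from the mean of the 6 libraries fell with transcript length, with a slope of -0.40 in log2 units per doubling of length, against 0.04 to 0.12 in the doxycycline libraries and 0.05 and 0.07 in the other control libraries. Results that rest on this library are given with and without it. The known YAP targets Ccn1 and Ccn2 checked the labels: Ccn1 averaged 114.8 ± 5.21 CPM with doxycycline and 9.95 ± 1.33 CPM in the control group, and Ccn2 averaged 144.2 ± 4.67 CPM with doxycycline and 3.45 ± 0.118 CPM in the control group (SD, n = 3 each). CPM are library-scaled counts (counts divided by the TMM-scaled library size, on the usual CPM scale), and a gene is said to have risen or fallen where the adjusted p of edgeR's quasi-likelihood test over all genes tested was under 0.05. Values after ± are SDs over the 3 libraries of a group.

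The sequence just upstream of 8 of the 10 genes was searched for the letters that p53 binds. RefSeq (GRCm38.p6) gave 12 promoter windows for these genes, each running from 250 bases before to 50 bases after a transcription start. No window was available for Trp53inp1 or Zmat3, so neither was searched. A script searched both strands for the p53 decamer consensus, and for a tandem pair of decamers with no spacer, allowing up to 3 mismatches in the 20 bases while the core letters were kept. The decamer was found in 6 of the 12 windows, 1 each for Bax, Sesn1, Mdm2, Ccng1, Trp53 and Cdkn1a, against 8.36% of 32851 windows of the same length. The tandem pair was found in 5 of the 12 windows, 1 each for Bbc3, Sesn1, Ccng1, Trp53 and Cdkn1a, against 1.38% of those windows. A tandem pair usually contains a decamer, so the 2 searches overlap. The genes were chosen as known p53 targets, so an excess of p53 matches over all windows follows from the choice and supports nothing further. The Bbc3 windows at chr7:16310011-16310310 and chr7:16310181-16310480 also share bases, so the windows are not all independent. The hexamer GGAATG, the core bound by the TEAD partners of YAP, was found in 1 of the 12 windows, that of Phlda3, against 14.7%. The AP-1 heptamer TGANTCA was found in 0 of the 12 windows, against 7.81%.

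The windows of Cdkn1a, Ccng1 and Trp53 are shown because they hold tandem pairs upstream of 2 genes that rose and of the 1 gene that fell. They are read 5′ to 3′ on the strand of the gene, and capitals mark the p53 matches. The Cdkn1a window shown lies at chr17:29090729-29091028 on the plus strand. It holds a tandem pair with 1 mismatch, starting 51 bases before the start site of that window, and a single decamer 73 bases before it. The window at another start of Cdkn1a, chr17:29093519-29093818, held 0 p53 matches. The tandem pair, at chr17:29090928-29090947, lies outside that window and upstream of it. The Ccng1 window lies at chr11:40755237-40755536 on the minus strand and holds a tandem pair with 1 mismatch, 195 bases before the start. The Trp53 window lies at chr11:69580109-69580408 on the plus strand and holds a tandem pair with 3 mismatches, 75 bases before the start.
Cdkn1a: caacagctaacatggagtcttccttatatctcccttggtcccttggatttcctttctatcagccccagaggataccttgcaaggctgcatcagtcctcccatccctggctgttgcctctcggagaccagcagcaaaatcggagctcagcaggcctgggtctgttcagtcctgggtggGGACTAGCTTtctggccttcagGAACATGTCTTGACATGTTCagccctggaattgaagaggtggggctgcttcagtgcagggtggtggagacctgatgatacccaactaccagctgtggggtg
Ccng1: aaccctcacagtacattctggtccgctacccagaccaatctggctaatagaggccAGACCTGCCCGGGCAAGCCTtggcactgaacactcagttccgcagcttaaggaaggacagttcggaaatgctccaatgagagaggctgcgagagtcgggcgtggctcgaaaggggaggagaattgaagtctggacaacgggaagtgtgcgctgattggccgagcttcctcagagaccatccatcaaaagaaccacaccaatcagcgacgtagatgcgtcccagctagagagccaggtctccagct
Trp53: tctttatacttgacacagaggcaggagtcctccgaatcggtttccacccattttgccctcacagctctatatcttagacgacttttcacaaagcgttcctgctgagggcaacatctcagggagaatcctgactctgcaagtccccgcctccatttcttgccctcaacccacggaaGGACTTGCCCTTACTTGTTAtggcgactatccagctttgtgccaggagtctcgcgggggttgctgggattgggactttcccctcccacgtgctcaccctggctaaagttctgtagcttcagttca

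Single matches upstream of other genes are shown to set these beside weaker ones. The Bbc3 match, at chr7:16309486-16309505, and the Sesn1 match, at chr10:41887266-41887285, each had 3 mismatches to the tandem pair. Windows at other starts of Bbc3 and Sesn1 held 0 p53 matches. Mdm2 and Bax held a lone decamer in their windows. All are matches of letters and no measure of binding. The known response elements of several of these genes lie farther away or inside the gene, where nothing was searched.
Bbc3: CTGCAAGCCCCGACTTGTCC
Sesn1: AAGCTTGTTTTTGCTGGCCT
Mdm2: GAACTTGCCT
Bax: AGGCAAGCTT

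In the doxycycline organoids the message of p53 itself fell while 5 of its 9 targets rose. Cdkn1a rose most, followed by Phlda3, Ccng1, Zmat3 and Mdm2, and Bax, Bbc3, Trp53inp1 and Sesn1 did not pass the test. Of the 10 genes, 5 were called higher, where 21.7% of all genes tested were, and 1 was called lower, where 23.6% were. Their median log2 fold change was 0.83, against -0.08 over all genes tested. Without control replicate 3 the calls were 7 higher and 1 lower, where 34.9% and 35.1% of the 13278 genes tested were called. On total counts alone, a scaling that moved the median of all genes to -0.52, they were 3 higher and 2 lower, where 13.5% and 39.7% of all genes were called. Libraries of the 2 groups did not overlap for any of the 10 genes: all doxycycline libraries lay above all control libraries for 8 of them and below for 2, where 30.0% and 31.3% of all genes did so.

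**Figure D1:**
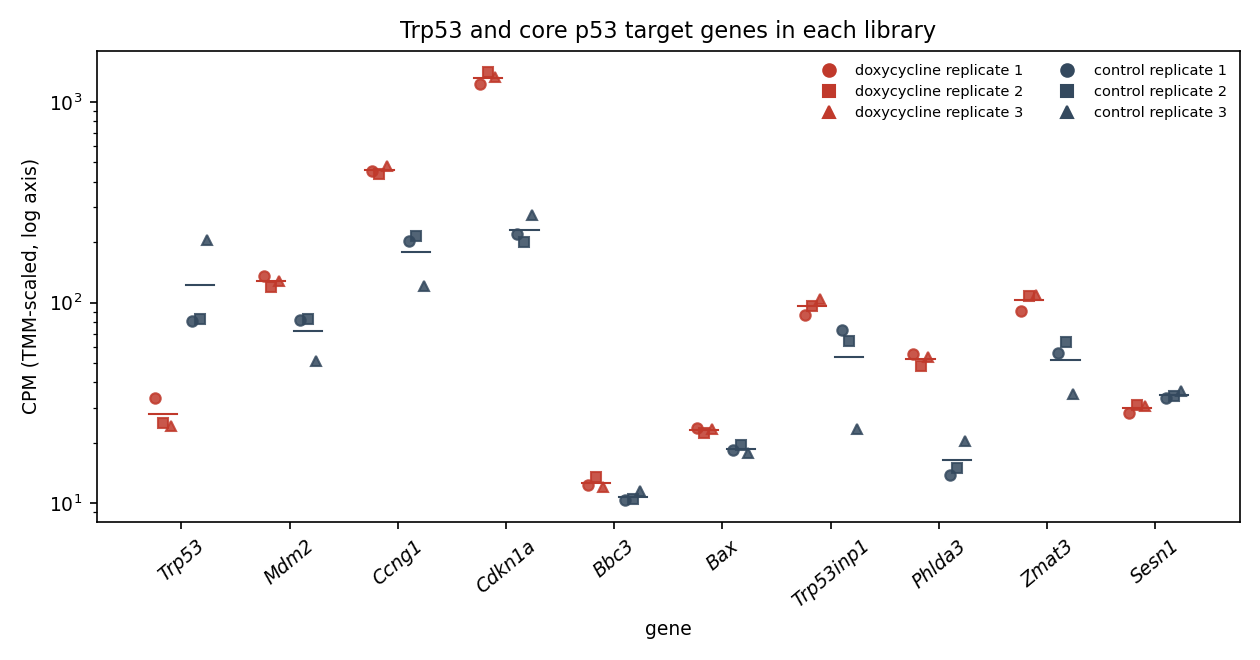
CPM (log axis) of each of the 10 genes in every library, with doxycycline left of control; each point is a library and the line is the group mean. Trp53 lies lower in all 3 doxycycline libraries, Cdkn1a lies higher in all 3, and control replicate 3 is far from the other control libraries for Trp53 and Trp53inp1.

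Trp53 lies on chromosome 11 (chr11:69580348-69591873, plus strand). It had 33.6, 25.2 and 24.4 CPM in the doxycycline libraries, against 80.8, 83.0 and 204 CPM in the control libraries. These values rest on 273 to 345 counts a library with doxycycline and 1079 to 2033 in the control group. The 3 doxycycline libraries were all below the lowest control library, and control replicate 3 was 2.5 times the mean of the other control libraries. Trp53 averaged 27.7 ± 5.13 CPM with doxycycline and 122.7 ± 70.8 CPM in the control group (SD, n = 3 each), a log2 fold change of -2.14 (SE 0.405, adjusted p = 0.00535), or 4.42-fold lower. Without control replicate 3 the log2 fold change was -1.56 (adjusted p = 1.56e-09), and with the length trend removed from each library it was -1.92. RefSeq lists a pseudogene copy, Trp53-ps, and how reads shared with it were counted is not given in the sources used here. As organoids are bulk samples, fewer cells expressing a gene and less RNA per cell cannot be told apart for any gene in these data.

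The feedback arm consists of Mdm2, the ubiquitin ligase that degrades p53, and Ccng1, which encodes cyclin G1, a protein that binds Mdm2 and the phosphatase PP2A. Mdm2 (chr10:117688875-117710758, minus strand) had 135.7, 119.5 and 128.4 CPM with doxycycline, against 82.0, 83.0 and 51.1 CPM in the control libraries. The doxycycline libraries were close together and all above the controls, of which replicate 3 was lowest. The log2 fold change of Mdm2 was 0.83 (SE 0.219, adjusted p = 0.0203), and 0.65 without control replicate 3 (adjusted p = 1.2e-06). Its call was lost on total counts (0.39, adjusted p = 0.177) and when doxycycline replicate 1, 2 or 3 was left out (adjusted p = 0.073, 0.0586 and 0.0695).

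Ccng1 (chr11:40748552-40755309, minus strand) had 454.5, 438.2 and 477.1 CPM with doxycycline, against 202.1, 214.2 and 121.2 CPM in the control libraries. Each doxycycline library held more than the highest control library. The log2 fold change was 1.35 (SE 0.239, adjusted p = 0.0042), or 2.55-fold higher, and 1.15 without control replicate 3.

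Cell-cycle arrest is represented by Cdkn1a, which encodes p21, the inhibitor of cyclin-dependent kinases through which p53 stops the cycle; p21 is also abundant in intestinal cells that have left the crypt and stopped dividing. Cdkn1a (chr17:29090979-29100722, plus strand) had 1231, 1408 and 1328 CPM with doxycycline, against 218.9, 201.1 and 271.9 CPM in the control libraries. The groups were far apart, and control replicate 3 was the highest of the controls. Cdkn1a averaged 1322 ± 88.5 CPM with doxycycline and 230.6 ± 36.8 CPM in the control group (SD, n = 3 each), a log2 fold change of 2.52 (SE 0.184, adjusted p = 0.000134), or 5.73-fold higher. Leaving out control replicate 3 gave 2.67.

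The 4 genes of the death arm did not move alike. Phlda3, an inhibitor of the kinase Akt, had 55.8, 48.1 and 53.5 CPM with doxycycline, against 13.9, 15.1 and 20.4 CPM in the control libraries (chr1:135766085-135769134, plus strand). All doxycycline libraries were above all controls, and the log2 fold change was 1.68 (SE 0.199, adjusted p = 0.000785), or 3.2-fold higher. Bbc3, which encodes the BH3-only protein Puma, had 12.3, 13.5 and 12.0 CPM with doxycycline, against 10.3, 10.5 and 11.5 CPM in the control libraries (chr7:16308398-16318334, plus strand). The doxycycline libraries were slightly higher, but the log2 fold change of 0.23 (SE 0.181, adjusted p = 0.343) did not pass the test. It rested on 122 to 170 counts a library with doxycycline and 114 to 177 in the control group.

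Bax, which encodes a pore-forming effector of the mitochondrial death pathway, had 23.8, 22.5 and 23.4 CPM with doxycycline, against 18.5, 19.5 and 17.9 CPM in the control libraries (chr7:45461695-45466903, minus strand). The groups did not overlap, but the log2 fold change of 0.32 (SE 0.154, adjusted p = 0.132) did not pass the test. On total counts the values of Bax and Bbc3 took the other sign, at -0.12 and -0.22 (adjusted p = 0.534 and 0.353). Trp53inp1, which encodes a nuclear body protein that promotes p53-dependent death, had 87.1, 96.5 and 104.7 CPM with doxycycline, against 72.8, 64.6 and 23.4 CPM in the control libraries (chr4:11156441-11174379, plus strand). Control replicate 3 was 0.341 times the mean of the other controls, and the log2 fold change of 0.84 (SE 0.392, adjusted p = 0.122) did not pass the test. Without that library Trp53inp1 was called higher at 0.50 (adjusted p = 0.000113) and Bax at 0.31 (adjusted p = 0.0447).

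Zmat3, also called Wig1, encodes a zinc finger protein that binds RNA. It had 91.3, 107.6 and 108.7 CPM with doxycycline, against 56.2, 63.5 and 35.0 CPM in the control libraries (chr3:32334792-32365665, minus strand). The doxycycline libraries were all higher, and the log2 fold change was 0.99 (SE 0.242, adjusted p = 0.0149), with 0.79 without control replicate 3. The call was lost on total counts (0.55, adjusted p = 0.0896) and without doxycycline replicate 2 or 3 (adjusted p = 0.0595 and 0.0592).

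Sesn1 encodes sestrin 1, a stress protein that restrains mTORC1. It had 28.3, 30.9 and 30.6 CPM with doxycycline, against 33.3, 34.2 and 36.2 CPM in the control libraries (chr10:41810574-41908436, plus strand). The doxycycline libraries were all slightly lower, and the log2 fold change of -0.21 (SE 0.145, adjusted p = 0.279) did not pass the test. On total counts Sesn1 was called lower, at -0.65 (adjusted p = 0.00866).

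**Figure D2:**
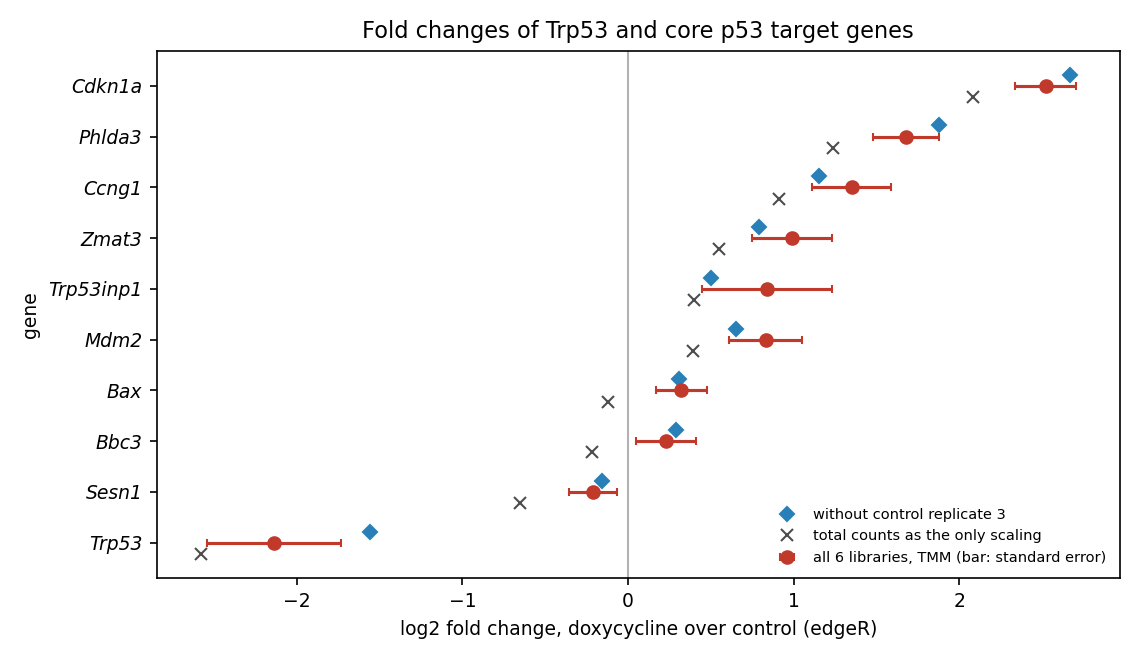
Log2 fold change of doxycycline over control (horizontal axis) for the 10 genes with all libraries, without control replicate 3 and on total counts; bars on the fit with all libraries are standard errors. Cdkn1a at 2.52 and Trp53 at -2.14 lie at the ends, while Bax and Bbc3 change sign on total counts.

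A ratio of 2 genes within a library needs no scaling between libraries. The counts of Cdkn1a were 36.6, 55.8 and 54.5 times those of Trp53 in the doxycycline libraries, against 2.71, 2.42 and 1.33 times in the control libraries. The ratio was 23.4-fold higher with doxycycline, a log2 difference of 4.55, and 4.23 without control replicate 3. Phlda3 counts were 1.66, 1.9 and 2.2 times those of Trp53 with doxycycline, against 0.171, 0.182 and 0.0999 times in the control libraries, a 13.1-fold higher ratio. Sesn1, with the smallest difference, had a ratio of 0.841, 1.22 and 1.26 with doxycycline, against 0.412, 0.412 and 0.177 in the control libraries, a log2 difference of 1.81. Because Trp53 itself was lower, a gene that did not change also gains in this ratio. The ratio was higher in every doxycycline library than in any control library for all 9 targets, but also for 83.2% of the 12908 other genes tested, and the median log2 difference was 1.99 over the 12544 of them with counts in every library. The direction of the 9 ratios therefore restates the fall of Trp53. Only their sizes differ from gene to gene, with Cdkn1a at 4.55 and Phlda3 at 3.71 above that median, Bbc3 at 2.24 and Bax at 2.34 near it, and Sesn1 below it. An exact two-sided permutation test gave p = 0.1 for each of the 9 ratios (0.1 adjusted over the 9), the smallest p that 3 against 3 libraries allow, so this test could not pass 0.05. The 9 ratios share the same Trp53 counts and are not independent.

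**Figure D3:**
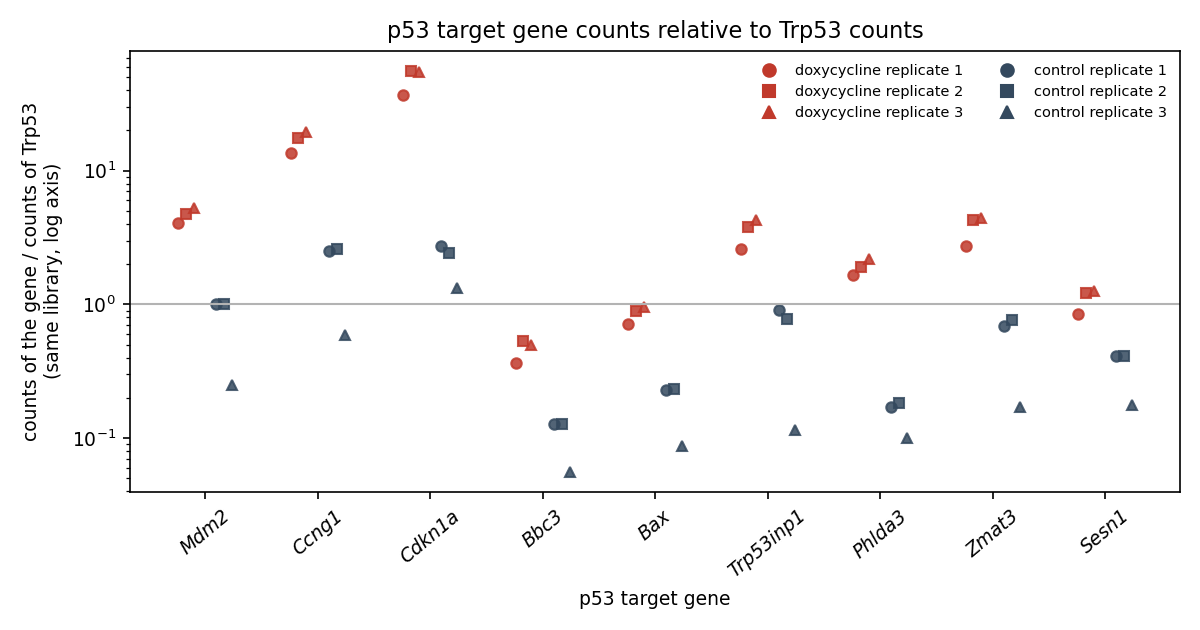
Counts of each of the 9 target genes divided by the Trp53 counts of the same library (log axis), with doxycycline left of control; each point is a library. Every doxycycline point lies above every control point of the same gene, as for 83.2% of all genes tested, with Cdkn1a at 36.6 to 55.8 with doxycycline and 1.33 to 2.71 in the control group.

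Dividing CPM by transcript length allowed levels to be compared between genes. With doxycycline the order in CPM per kilobase was Cdkn1a at 636 ± 42.5, Ccng1 at 130 ± 5.56, Mdm2 at 40.7, Phlda3 at 36.6, Bax at 21.1, Trp53inp1 at 17.8, Trp53 at 14.9, Zmat3 at 13.1, Sesn1 at 7.86 and Bbc3 at 6.95. Libraries of neighbouring genes overlapped in this order for Mdm2 and Phlda3, for Trp53inp1 and Trp53, for Trp53 and Zmat3, and for Sesn1 and Bbc3. In the control group it was Cdkn1a at 111, Trp53 at 65.7 ± 37.9, Ccng1 at 51.0, Mdm2 at 22.9, Bax at 16.9, Phlda3 at 11.5, Trp53inp1 at 9.92, Sesn1 at 9.08, Zmat3 at 6.61 and Bbc3 at 5.94. There the neighbours were apart only for Ccng1 and Mdm2, for Bax and Phlda3, and for Sesn1 and Zmat3. Trp53 ranked 7 of 10 with doxycycline and 2 of 10 in the control group, where its spread overlapped that of Cdkn1a and Ccng1. That rank and the overlaps with Cdkn1a and Ccng1 rest on control replicate 3. In that library Trp53 stood at 109 CPM per kilobase, against 43.3 and 44.4 in the other control libraries. Ccng1 stood at 34.5 there, against 57.5 and 61 in the other control libraries. Without control replicate 3 Ccng1, at 59.3, ranked above Trp53, at 43.9, which was then 3 of 10. Likewise Trp53inp1, at 12.7, then ranked above Phlda3, at 10.1. The fall of that library with transcript length also enters the control levels per kilobase. Cdkn1a ranked 1 in both groups.

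The 3 genes whose log2 CPM profile over the 6 libraries lay closest to that of Trp53 were Nxt1 (distance 0.148), Kat2a (0.221) and Dhodh (0.228). Nxt1, which encodes a cofactor of mRNA export, had 9.50, 7.77 and 7.63 CPM with doxycycline, against 25.4, 26.2 and 59.6 CPM in the control libraries. These profiles share with Trp53 the high value in control replicate 3.

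A wider list of 53 other known p53 targets held 51 genes that were tested. Of these 13 rose and 9 fell, and their log2 fold changes had a median of 0.16. These counts lie near the share of all genes tested that was called, 21.7% higher and 23.6% lower. Without control replicate 3 they were 25 and 11, where 34.9% and 35.1% of all genes were called, and on total counts 12 and 14, where 13.5% and 39.7% were. Among the 10 cell-cycle genes 4 rose and 4 fell. Plk2, a polo-like kinase, averaged 91.7 ± 7.91 CPM with doxycycline and 10.4 ± 0.449 CPM in the control group (log2 fold change 3.15, adjusted p = 5.12e-05), and Sfn, which encodes 14-3-3 sigma, averaged 661.9 ± 32.1 CPM with doxycycline and 176.5 ± 9.78 CPM in the control group (1.91, adjusted p = 0.000164). Ckap2, a protein of the mitotic spindle, fell to 10.0 ± 0.523 CPM with doxycycline, against 30.5 ± 3.76 CPM in the control group (-1.61, adjusted p = 0.000572).

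Among the 12 further death genes 4 rose and 2 fell, where 21.7% and 23.6% of all genes tested were called. Those that rose included Pmaip1, which encodes the BH3-only protein Noxa. It averaged 262.6 ± 21.7 CPM with doxycycline and 56.0 ± 12.6 CPM in the control group (2.23, adjusted p = 0.000394). The TRAIL receptor gene Tnfrsf10b averaged 98.7 ± 3.36 CPM with doxycycline and 29.5 ± 3.24 CPM in the control group (1.74, adjusted p = 0.000252). Perp, a desmosomal membrane protein needed for p53-dependent death in some cells, averaged 741.7 ± 22.3 CPM with doxycycline and 228 ± 4.75 CPM in the control group (1.70, adjusted p = 0.00021). The death genes that fell were Pidd1 (-2.20, adjusted p = 0.000703) and Steap3 (-2.21, adjusted p = 0.000742). Pmaip1, Tnfrsf10b and Perp rose where Bbc3 and Bax did not pass the test. The differences between genes were not tested.

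Of the 7 genes of DNA repair and nucleotide supply, 0 were called in either direction by edgeR, with a median of 0.11. There were 0 also at an unadjusted p under 0.05, and 0 in DESeq2 and voom, but 1 was called lower without control replicate 3, 1 on total counts and 1 with voom quality weights. Among the 4 feedback genes only Cop1, another ubiquitin ligase for p53, rose, at 44.2 ± 0.196 CPM with doxycycline and 30.1 ± 1.05 CPM in the control group (0.55, adjusted p = 0.0157), a call that ended on total counts (adjusted p = 0.528) and without control replicate 1 or any 1 doxycycline library (0.0552 to 0.0705). Of the 11 metabolic genes 1 rose and 2 fell, where 21.7% and 23.6% of all genes tested were called. The proline-degrading enzyme gene Aldh4a1 averaged 23.8 ± 2.8 CPM with doxycycline and 10.2 ± 2.3 CPM in the control group (1.23, adjusted p = 0.00472), and the glutaminase gene Gls2 averaged 2.84 ± 0.776 CPM with doxycycline and 10.2 ± 4.79 CPM in the control group (-1.84, adjusted p = 0.00982). Sco2, a cytochrome c oxidase assembly factor, averaged 43.2 ± 1.22 CPM with doxycycline and 78.8 ± 28.8 CPM in the control group (-0.87, adjusted p = 0.0318). The Sco2 call was lost when doxycycline replicate 1, 2 or 3 was left out (adjusted p = 0.101, 0.101 and 0.111).

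Of 7 other membrane and signalling targets 3 rose and 1 fell, where 21.7% and 23.6% of all genes tested were called. The receptor kinase gene Epha2 averaged 425.2 ± 16.4 CPM with doxycycline and 33.7 ± 7.5 CPM in the control group (3.65, adjusted p = 7.43e-05), and the lipid hydrolase gene Abhd4 averaged 306.9 ± 12.1 CPM with doxycycline and 63.8 ± 9.77 CPM in the control group (2.27, adjusted p = 0.000156). Trp53i11 averaged 9.59 ± 1.14 CPM with doxycycline and 41.0 ± 7.01 CPM in the control group (-2.10, adjusted p = 0.000342).

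**Figure D4:**
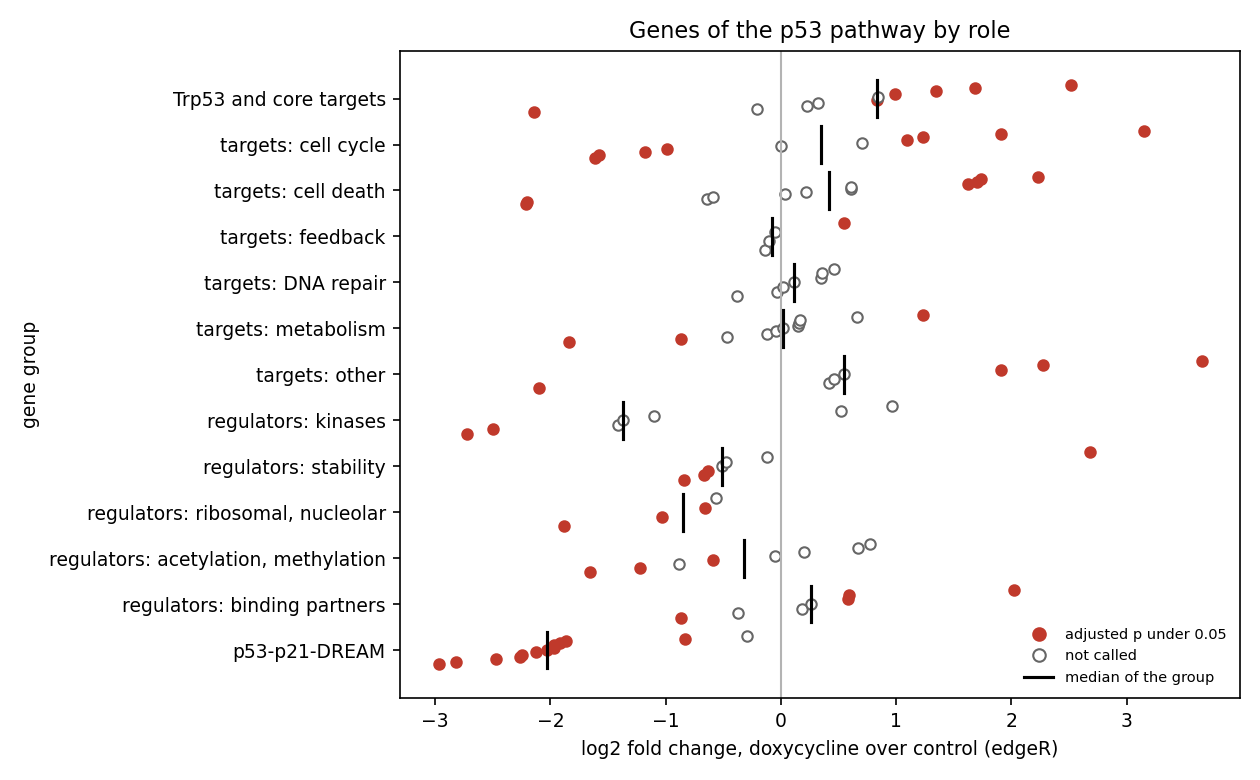
Log2 fold change of doxycycline over control (horizontal axis) for every tested gene of the pathway, grouped by role down the page; each point is a gene, filled where the adjusted p was under 0.05, and the black line is the median of a group. Genes repressed through p53, p21 and the DREAM complex all lie left of 0, and the p53 targets lie on both sides of 0.

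Among 33 regulators of p53, all of which were tested, 4 rose and 12 fell, and the median over the list was -0.56 on the log2 scale, where 21.7% and 23.6% of all genes tested were called. Without control replicate 3 the counts were 8 and 18, where 34.9% and 35.1% of all genes were called. On total counts they were 2 and 21, where 13.5% and 39.7% were, with the median of all genes at -0.52. The checkpoint kinases that phosphorylate p53 after DNA damage were both lower: Chek1 averaged 3.21 ± 0.301 CPM with doxycycline and 21.2 ± 5.18 CPM in the control group (-2.72, adjusted p = 0.000311), and Chek2 averaged 3.78 ± 0.928 CPM with doxycycline and 21.4 ± 5.76 CPM in the control group (-2.50, adjusted p = 0.000833). The other 5 kinases, Atm, Atr, Prkdc, Hipk2 and Dyrk2, were not called in the main edgeR fit. Some other settings with all libraries did call them. DESeq2 called Atm lower (-1.34, adjusted p = 0.0239) and Dyrk2 higher (0.99, adjusted p = 0.023). Prkdc was lower on total counts (-1.54, adjusted p = 0.029) and Atr with the length trend removed (-1.50, adjusted p = 0.041). Hipk2 was higher with voom quality weights (0.57, adjusted p = 0.00123). Leaving out control replicate 3, Atm (-1.75, adjusted p = 3.87e-07) and Atr (-1.86, adjusted p = 2.4e-07), the kinases that sense DNA damage, were called lower, and Dyrk2, which phosphorylates p53, was called higher (0.65, adjusted p = 8.81e-07).

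Among the 7 genes that act on p53 through ubiquitin, Cdkn2a, whose Arf product blocks Mdm2, rose to 1.85 ± 0.685 CPM with doxycycline, against 0.281 ± 0.041 CPM in the control group (2.68, adjusted p = 0.00363). The deubiquitinase gene Usp10 averaged 96.9 ± 9.2 CPM with doxycycline and 173.3 ± 19.7 CPM in the control group (-0.84, adjusted p = 0.00618), and the ligase gene Trim24 averaged 31.8 ± 2.87 CPM with doxycycline and 50.6 ± 1.69 CPM in the control group (-0.67, adjusted p = 0.00999). The Trim24 call was lost without doxycycline replicate 1 (adjusted p = 0.052). The counts of Cdkn2a cannot tell Arf from the other product of the gene, p16.

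Of the 4 ribosomal and nucleolar genes, whose proteins hold back Mdm2, 3 fell, where 23.6% of all genes tested were called lower. Npm1 averaged 57.4 ± 16 CPM with doxycycline and 211.2 ± 128 CPM in the control group (-1.88, adjusted p = 0.0124; -1.25 without control replicate 3). Ncl averaged 209.2 ± 8.5 CPM with doxycycline and 427.7 ± 125 CPM in the control group (-1.03, adjusted p = 0.0132), and Rpl5 averaged 39.6 ± 1.75 CPM with doxycycline and 62.6 ± 13 CPM in the control group (-0.66, adjusted p = 0.025). Near-identical copies of such genes make their counts uncertain. Leaving out single doxycycline libraries ended each of these calls: Npm1 without replicate 2 or 3 (adjusted p = 0.0598 and 0.0583), and Ncl and Rpl5 without any 1 of the 3 (0.0529 to 0.0631 and 0.0787 to 0.106).

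Of 8 genes that acetylate, deacetylate or methylate p53, 3 fell, where 23.6% of all genes tested were called lower. The methyltransferase gene Smyd2 averaged 8.22 ± 1.32 CPM with doxycycline and 25.9 ± 8.99 CPM in the control group (-1.66, adjusted p = 0.00403), and the acetyltransferase gene Kat8 averaged 3.95 ± 0.796 CPM with doxycycline and 9.20 ± 1.29 CPM in the control group (-1.22, adjusted p = 0.00746). The deacetylase gene Sirt1 averaged 27.6 ± 1.26 CPM with doxycycline and 41.5 ± 7.97 CPM in the control group (-0.59, adjusted p = 0.0393), and 5 of the 6 left-out libraries ended that call (adjusted p = 0.113 to 0.133). Of 7 binding partners 3 rose and 1 fell, where 21.7% and 23.6% of all genes tested were called. Ppp1r13l, which encodes the p53 inhibitor iASPP, rose to 60.6 ± 5.13 CPM with doxycycline, against 15.0 ± 2.28 CPM in the control group (2.02, adjusted p = 0.000261). The nuclear body gene Pml averaged 87.1 ± 1.25 CPM with doxycycline and 58.5 ± 1.49 CPM in the control group (0.58, adjusted p = 0.0118; adjusted p = 0.435 on total counts), and the bromodomain gene Brd7 averaged 6.30 ± 0.8 CPM with doxycycline and 11.5 ± 0.806 CPM in the control group (-0.87, adjusted p = 0.013). The Pml call was lost without doxycycline replicate 2 or 3 (adjusted p = 0.0589 and 0.0616), and the Brd7 call without doxycycline replicate 1 or 3 (0.0564 and 0.0695).

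p21 also acts on transcription: by keeping the retinoblastoma family unphosphorylated it lets the DREAM complex repress genes of DNA replication and mitosis. Of 13 such genes 12 fell and 0 rose in edgeR (0 higher also at an unadjusted p under 0.05, in DESeq2 and in voom). The share of all genes called lower was 23.6%. The median of the list was -2.03 on the log2 scale, and all 13 were called lower without control replicate 3, where 35.1% of all genes were, and on total counts, where 39.7% were. Plk1, a mitotic kinase, averaged 17.4 ± 2.08 CPM with doxycycline and 96.8 ± 4.13 CPM in the control group (-2.47, adjusted p = 0.0001). Ccna2, which encodes cyclin A2, averaged 45.9 ± 2 CPM with doxycycline and 180.4 ± 40.8 CPM in the control group (-1.97, adjusted p = 0.00046), and Birc5, which encodes survivin, averaged 14.1 ± 1.77 CPM with doxycycline and 61.2 ± 16.7 CPM in the control group (-2.12, adjusted p = 0.000671). These genes mark dividing cells whatever the cause, and the part of p21 in their levels was not tested.

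Of 36 markers of cell types that were tested, 9 rose and 17 fell, where 21.7% and 23.6% of all genes tested were called. Stem cell markers fell in 5 of 5 cases, with a summed level of 23.9 to 24.7 CPM with doxycycline and 3739 to 5044 CPM in the control group. Olfm4, which averaged 3961 CPM in the control group, carried most of the control sum. Paneth cell markers fell in 4 of 4 (31.2 to 34.7 CPM with doxycycline and 2169 to 4388 CPM in the control group) and goblet cell markers in 5 of 5 (0.353 to 0.909 CPM with doxycycline and 74.2 to 90.7 CPM in the control group). Enterocyte markers rose in 6 of 8, with a summed level of 16402 to 17234 CPM with doxycycline and 1836 to 3124 CPM in the control group. Alpi and Apoa1, which averaged 6049 and 6528 CPM with doxycycline, carried most of the doxycycline sum. Sis (0.92, adjusted p = 0.064) and Fabp2 (-0.46, adjusted p = 0.459) were not called. Of 4 enteroendocrine markers, Chga and Neurog3 fell, and Chgb and Neurod1 overlapped between the groups and were called lower only without control replicate 3. Of 3 tuft cell markers Pou2f3 fell (-1.18, adjusted p = 0.034), while Trpm5 (-0.52, adjusted p = 0.159) and Dclk1 (0.68, adjusted p = 0.138) were not called. General epithelial markers were present in both groups, at 7278 to 7770 CPM with doxycycline and 2563 to 2931 CPM in the control group. Of these 5 markers 3 rose, and Krt8 averaged 4686 CPM with doxycycline and 729.9 CPM in the control group. Epcam (-0.14, adjusted p = 0.745) and Cdx2 (0.37, adjusted p = 0.107) were not called. Of 11 markers of mesenchymal, endothelial and immune cells, 9 had too few counts to be tested, and Col1a1, Dcn and Kdr among them had 0 in every library. The 2 tested, Cd68 and Csf1r, were not called by edgeR, at an unadjusted p under 0.05 either, nor by DESeq2 or voom. With voom quality weights 1 marker was called higher, and without control replicate 3 it was Csf1r (0.34, adjusted p = 0.0252). Their sum was 27.7 to 28.2 CPM with doxycycline and 21.2 to 43.4 CPM in the control group, mostly from Csf1r. The part of these shifts in the levels of the p53 targets was not tested.

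Relatives of the 10 genes, which share a protein family with them, were read in the same fit. Ccng2, the paralog of Ccng1, averaged 227 ± 12.4 CPM with doxycycline and 28.5 ± 6.29 CPM in the control group (2.99, adjusted p = 0.000138). Trp53inp2, an autophagy protein related to Trp53inp1, averaged 285.7 ± 5.36 CPM with doxycycline and 85.3 ± 21 CPM in the control group (1.74, adjusted p = 0.00103). Beside Phlda3, Phlda1 averaged 676.7 ± 9.63 CPM with doxycycline and 307.5 ± 20.6 CPM in the control group (1.14, adjusted p = 0.00103), and Phlda2 averaged 30.0 ± 5.81 CPM with doxycycline and 16.4 ± 3.64 CPM in the control group (0.87, adjusted p = 0.021; adjusted p = 0.166 on total counts). The Phlda2 call was also lost with 4 of the 6 libraries left out in turn (adjusted p = 0.0534 to 0.0788). With Pmaip1, 5 of the 16 relatives tested rose and 0 fell in edgeR (1 lower at an unadjusted p under 0.05, 0 in DESeq2, 1 in voom), with a median of 0.23, where 21.7% and 23.6% of all genes tested were called. Without control replicate 3 the counts were 9 and 4 (34.9% and 35.1% of all genes), and on total counts 4 and 3 (13.5% and 39.7%).

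The other 11 relatives were not called. Mdm4, the partner of Mdm2, averaged 118.1 CPM with doxycycline and 168 CPM in the control group (-0.51, adjusted p = 0.242), and was called lower without control replicate 3 (-0.79, adjusted p = 5.79e-07). Of the other inhibitors in the family of p21, Cdkn1b (p27) averaged 120.1 CPM with doxycycline and 128.9 CPM in the control group (-0.10, adjusted p = 0.849; -0.44 and 0.000141 without control replicate 3), and Cdkn1c (p57) averaged 22.3 CPM with doxycycline and 14.1 CPM in the control group (0.66, adjusted p = 0.0598). Cdkn1c was called higher without control replicate 3 (adjusted p = 7.16e-05). Of the sestrins, Sesn2 averaged 59.3 CPM with doxycycline and 53.4 CPM in the control group (0.15, adjusted p = 0.463; 0.26 and 0.0215 without control replicate 3), and Sesn3 averaged 73.6 CPM with doxycycline and 130.9 CPM in the control group (-0.83, adjusted p = 0.197; -1.23 and 3.82e-10 without control replicate 3).

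Of the relatives of Bax, Bak1 averaged 261.4 CPM with doxycycline and 182.1 CPM in the control group (0.52, adjusted p = 0.109; 0.79 and 1.17e-06 without control replicate 3), and Bok averaged 16.6 CPM with doxycycline and 22.9 CPM in the control group (-0.46, adjusted p = 0.169). The BH3-only genes Bcl2l11, Bid, Bad and Bmf averaged 37.1, 44.7, 34.6 and 3.83 CPM with doxycycline, against 31.2, 38.5, 39.0 and 6.31 CPM in the control group (adjusted p = 0.493, 0.295, 0.625 and 0.0501). With control replicate 3 left out, Bid was called higher (0.33, adjusted p = 0.00758) and Bmf lower (-0.64, adjusted p = 0.0315). Hrk and Bik held at most 2 and 0 counts in a doxycycline library, against 0 and 6 in a control library, and were not tested. The p53 relatives Trp63 and Trp73 held at most 0 and 4 counts in a doxycycline library, against 2 and 2 in a control library, and were not tested either. At this depth no level can be given for them.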

How the data were processed

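RNA-seq gene counts of 6 organoid libraries were analysed. The deposited table holds whole-number counts per Entrez gene ID, not normalised. RNA was isolated with a Qiagen column and made into TruSeq libraries for a NextSeq instrument, per the labels' protocols. The submitters' processing notes name the build mm10. Not given in the sources used here are the aligner, counting tool, annotation and use of strand. Of genes with 1 to 8 counts in a library, 59.8 to 65.7% had an even count in the doxycycline libraries and 64.2 to 67.2% in the control libraries. Counts may therefore hold both reads of a pair, and small counts may stand for fewer fragments than they show.

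Symbols and positions came from RefSeq's GRCm38.p6, the assembly mm10 stands for (24570 of 24594 IDs matched), and transcript lengths from GENCODE, as the longest coding transcript (21357 IDs). Counts were tested with edgeR 4.0.16 in R 4.3.3: genes kept by its expression filter, TMM scaling, the quasi-likelihood F-test with robust dispersions (doxycycline over control), and Benjamini-Hochberg adjustment over the 12909 genes tested, at 0.05. All adjusted p-values in the text come from this fit unless an alternative is named. SE is the log2 fold change divided by the square root of F. Alternatives used other scalings and filters, DESeq2 1.42.0, limma 3.58.1 (voom), a replicate block, a test against a 2-fold change, the length trend removed, and each library left out.

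The members and lists were chosen with earlier results of these data known. The text names all 10 members, all relatives, up to 3 called genes with the smallest adjusted p in each role of the other lists, and the 3 genes nearest to Trp53 in centred log2 CPM (Euclidean distance). Ccn1, Ccn2 and the marker genes are checks, and Atm, Atr, Prkdc, Hipk2, Dyrk2, Pidd1 and Steap3 were named after their values were seen. An lncRNA that overlaps Zmat3 by 177 bases was not analysed here. Promoter windows on chromosome 18 were left out of the motif background. The fit was also run on simulated counts, with far fewer changed genes than were called here and no length trend in any library. That run therefore cannot show how control replicate 3 affects the fit.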

Additional observations from a re-analysis of the deposited data

How the results depend on the processing

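Trp53, Cdkn1a and Phlda3 kept their direction and call in all 18 alternatives, Ccng1 in 17 (not against a 2-fold change, adjusted p = 0.133), Mdm2 in 12 and Zmat3 in 13. On total counts Bax (-0.12) and Bbc3 (-0.22) reversed, and the counts were 3 higher and 2 lower of the 10 genes, 14 other targets lower, and 2 regulators higher and 21 lower. With voom quality weights 24 other targets and 9 regulators were higher and 19 regulators lower. At an adjusted p under 0.01, 3 of the 10 genes and 2 regulators were higher and 6 regulators lower. Against a 2-fold change, 2 of the 10 genes, 8 other targets and 2 regulators were higher, and 5 other targets and 3 regulators lower. With 1 library left out, the 10 genes gave 3 to 7 higher, the other targets 12 to 25 higher, and the regulators 2 to 8 higher and 6 to 18 lower. The DREAM genes then gave 10 to 13 lower. The upper ends came without control replicate 3; the lowest count of the 10 genes came without doxycycline replicate 2 or 3, and 6 regulators were lower without doxycycline replicate 1 or 3. The cause was not tested. Deviations of same-numbered libraries from their group means had r of -0.299, 0.119 and -0.187 for numbers 1, 2 and 3. As control replicate 3 pulls the mean of its group, these values cannot decide whether the numbers pair the libraries. With a replicate block 5 of the 10 genes stayed higher and 1 lower, 12 other targets and 2 regulators were higher, and 12 DREAM genes lower. Among these alternatives, the share of all genes called was taken only on total counts and without control replicate 3. Counts under the other settings therefore have no share to be set beside, and may follow a change in calls over all genes. Among the tested pathway genes named here, small counts limit Cdkn2a most, with as few as 3 counts in a library. They also limit Prkdc, Atr, Gls2, Pidd1, Bmf, Chek1, Kat8, Steap3, Atm and Chek2, with 16 to 35 in their lowest library. Of the markers, the Pou2f3 call rests on 12 to 32 counts a library with doxycycline and 37 to 67 in the control group.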
